A study of Mus musculus with 6 samples.

Results

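Border-associated macrophages are the resident macrophages of the brain's outer and perivascular spaces. They were picked here from single-cell RNA libraries of the hippocampus of old mice, by the transcripts of 6 genes known from these cells: Mrc1, F13a1, Cd163, Lyve1, Pf4 and Cbr2. A cell was a member when it held at least 3 transcripts of the 6 genes together, when these made up at least 8 of every 10000 of its transcripts, and when it had at least 1 transcript of Csf1r, Inpp5d or Dab2, which are expressed in macrophages. Transcripts are counted as unique molecular identifiers (UMIs), a tag that the 10x Genomics kit attaches to each captured RNA molecule. The rule found 62 members among 50287 kept cells, 0.123% of the total. Because measured values of these 9 genes chose the members, their levels are a description and no test was made on them.

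The study exposed old mice to sevoflurane, an inhaled general anaesthetic, or to air. The 3 Sevoflurane libraries come from hippocampi of mice that breathed 2% sevoflurane for 6 h, and the 3 Control libraries from mice kept in air, with tissue taken 24 h later in both groups. No genotype, strain, sex or exact age is given, no transgene or other treatment is named, and the duration of the air exposure is not stated separately. The tissue was cut up, digested with collagenase at 37 °C, passed through a mesh, frozen in liquid nitrogen and thawed before the libraries were made, so a library holds the cells that came through these steps. The labels speak of 6 treated mice but do not tie each library to a mouse. A p-value here therefore reflects how much the 6 libraries vary, which may be technical.

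Macrophages of the brain's borders line blood vessels, the meninges and the choroid plexus, while microglia are the macrophages of the tissue itself. Border macrophages are known for endocytic receptors such as the mannose receptor Mrc1 and the haemoglobin receptor Cd163, with which they take up material from the fluid around vessels. A subset of them carries the hyaluronan receptor Lyve1 and another presents antigen on MHC class II molecules. Microglia share the receptor Csf1r with them, but are known by P2ry12, Tmem119 and Sall1.

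The genes of the rule chose the members, so their levels describe the members and do not check the label. Mrc1 and F13a1, which encodes the transglutaminase subunit of coagulation factor XIII, each had a UMI in 58 of the 62 members. Cd163 had one in 41, Cbr2, a carbonyl reductase, in 20, Lyve1 in 18 and the chemokine Pf4 in 9. Among 1283 microglia, picked by a rule of the same form on P2ry12, Tmem119, Cx3cr1, Siglech, Sall1 and Gpr34, Mrc1 had a UMI in 1.01% and F13a1 in 0.234%, and Cd163, Lyve1, Pf4 and Cbr2 in none. Among 7022 oligodendrocytes, the myelin-forming cells, which should lack macrophage genes and show the background of free RNA in droplets, Mrc1 had a UMI in 0.185% and F13a1 in 0.199%. The endocytic adaptor Dab2 had a UMI in 57 members and in 4.75% of microglia. Csf1r had one in 38 members against 75.3% of microglia, and the phosphatase Inpp5d in 51 members against 97.7%. The microglia rule also required a UMI of Csf1r or Inpp5d, while a member could pass that step with Dab2 alone. These shares therefore follow in part from the choice of cells, and the contrast was not tested.

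Mrc1 made up 1380, 2260 and 1670 UMIs per 1000000 of the summed UMIs of a library's members (CPM) in Control 1 to 3, and 2080 and 1480 CPM in Sevoflurane 2 and 3. F13a1 stood at 1720, 4410 and 1780 CPM in Control and at 1350 and 1710 CPM in Sevoflurane. Cd163 stood at 486, 764 and 414 CPM in Control and at 180 and 590 CPM in Sevoflurane. In these sums all 3 genes were highest in Control 2, and for Mrc1 and Cd163 the groups overlapped, while F13a1 was higher in all 3 Control sums. The order depended on the deepest members, described below. In members of at most 5000 UMIs, Mrc1 was highest in Sevoflurane 2 (4120 CPM, against 2780 CPM in Control 2). Cd163 was highest there in Control 1 (1380 CPM, against 1040 CPM in Control 2). Dab2 stood at 703, 1330 and 1050 CPM in Control and at 451 and 443 CPM in Sevoflurane, with no overlap between the groups, and with 5 UMIs in Sevoflurane 2. F13a1 and Dab2 helped to choose the members and were not tested. The share of all genes that separate in this way is not given, so no effect of sevoflurane is read from them.

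The label was checked against markers of other blood cells, which the rule did not use. Of the 7 monocyte genes, Ccr2, Plac8 and Chil3 had no UMI in any member, which with 62 members allows up to 4.84% of members with a UMI, and the summed level of all 7 reached at most 18.7 UMIs per 10000 (CP10k). Monocyte markers had a UMI in 11 members (17.7%, against 7.25% of microglia), of which 4 were among the 49 members of at most 5000 UMIs. The 7 dendritic cell markers had one in 18 members (29.0% against 7.09%), 10 of them among the 49, and this list shares Cd209a with the border macrophage genes. B cell markers had one in 10 members (16.1% against 0.935%) and in 1 of the 49. All 10 had Ebf1, a factor that mural cells express as well, while Ms4a1 had none. Mast cell markers had one in 11 members (17.7% against 5.77%), all of Kit, which 10.9% of oligodendrocytes also had, and Cpa3 had none. Neutrophil markers were found in 1 member. The 8 markers of T and NK cells had a UMI in 34 members, mainly of Ptprc, which all white blood cells express, and Cd3d and Skap1 had none. Neuron markers, 12 genes, had a UMI in all 62 members with a median of 59.2 CP10k, against 68.3 CP10k in microglia.

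Members differed in depth, and the deep ones carried markers of other cells. A member held a median of 2363 UMIs, from 1160 to 28199, against 2133 in microglia and 2343.5 in oligodendrocytes. Above 5000 UMIs there were 13 members (3, 2 and 4 in Control 1 to 3, 0, 1 and 3 in Sevoflurane 1 to 3), which held 58.7% of all members' UMIs and so dominate sums over members. Endothelial and mural markers reached 20 CP10k in 8 of these 13 members and in 1 of the other 49. Neuron markers reached 100 CP10k in 7 of the 13 and in 2 of the 49. The 8 fibroblast markers were found in 9 of the 13 and in 11 of the 49, and a doublet score marked 9 of the 13 and 2 of the 49. The shallowest of the 13 had 5422 UMIs and the deepest of the others 4618. Counts of called genes are therefore also given for the members of at most 5000 UMIs, a limit chosen after seeing the data, against microglia of at most 5000 UMIs.

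**Figure D1:**
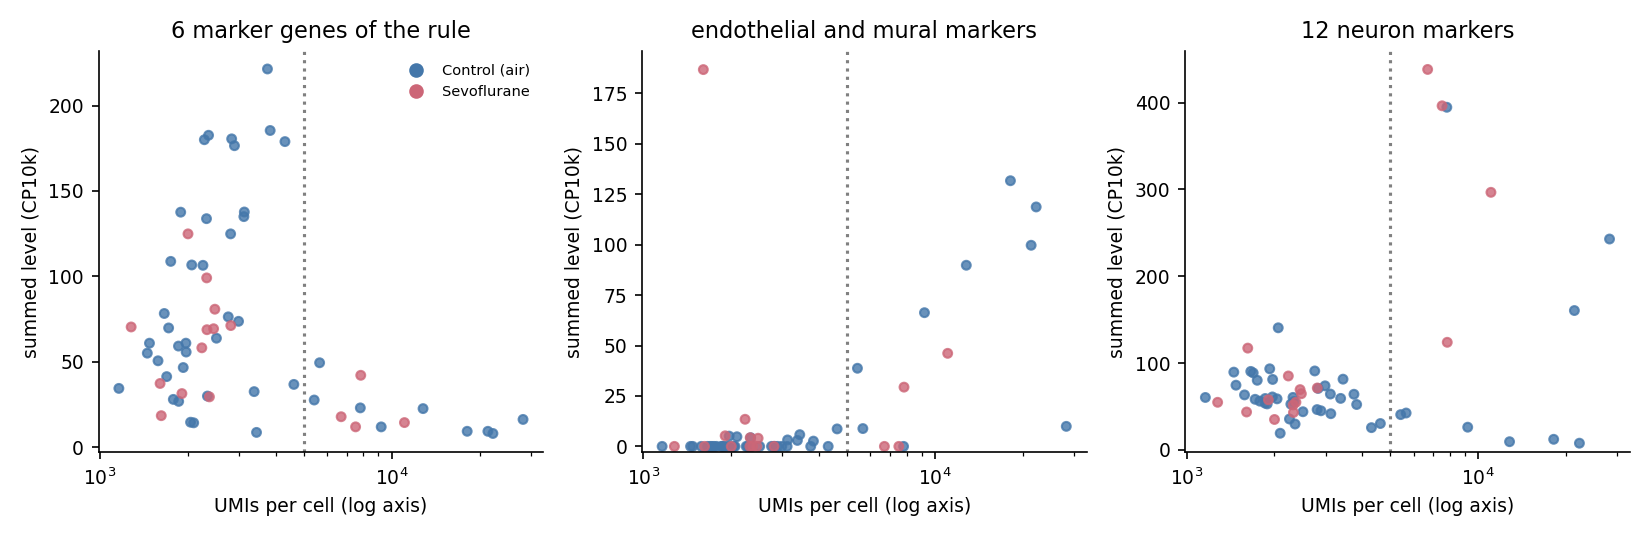
Each point is a member, with its UMIs on a log axis and, from left to right, the summed level in CP10k of the 6 marker genes of the rule, of the endothelial and mural markers, and of the 12 neuron markers. Blue is Control, red Sevoflurane, and the dotted line stands at 5000 UMIs. Right of the line the rule genes stay low and most members carry vessel or neuron markers at a high level.

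Members just inside and just outside the rule were few. The summed UMIs of the 6 genes had a median of 16.5 and a maximum of 83, and 4 members stood at exactly 3. The level of the 6 genes ran from 8.1 to 221 CP10k with a median of 57.0, and 6 members lay between 8 and 12 CP10k. Outside, 15 cells just missed the UMI or level limit (2, 6 and 2 in Control 1 to 3, 0, 2 and 3 in Sevoflurane 1 to 3), and 3 further cells passed both but had no UMI of Csf1r, Inpp5d or Dab2.

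The 6 libraries held 7042 to 9758 kept cells each and 54426522 to 70741809 UMIs in all their barcodes. Sevoflurane 1 stood apart in sex-linked transcripts: Xist, an RNA made from the silenced X in females, was at 1398 CPM there and at 0.533 to 1.21 CPM in the other 5 libraries, and the Y-linked Eif2s3y was at 0 against 123 to 146 CPM. Sex was thus not balanced between the groups, and Sevoflurane 1 is also the library with no member. At most 29 barcodes were shared by any 2 libraries, and 1 member's barcode occurred in another library.

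Border macrophages were counted 13, 19 and 14 times in Control 1 to 3 and 0, 3 and 13 times in Sevoflurane 1 to 3. Their share of kept cells was 0.185% (95% exact binomial interval 0.0983 to 0.316), 0.218% (0.132 to 0.341) and 0.188% (0.103 to 0.316) in Control. In Sevoflurane it was 0% (0 of 9758 cells, with an upper bound of 0.0378% from the same two-sided interval and of 0.0307% from the limit of 3 counts), 0.0348% (0.00719 to 0.102) and 0.149% (0.0793 to 0.254). All 3 Control libraries lay above all 3 Sevoflurane libraries, but Sevoflurane 3 lay within the counting intervals of the Control libraries. The mean was 0.197 ± 0.0185% in Control and 0.0612 ± 0.0779% in Sevoflurane (SD, n = 3 each), a difference of -0.136 percentage points (two-sided exact permutation p = 0.1, the smallest that 3 against 3 libraries allow). An edgeR fit on the cell counts, which models the spread of counts between libraries, gave a log2 fold change of -1.72 with an SE of 0.799. Without Sevoflurane 1, the mean of the 2 other Sevoflurane libraries was 0.0918 ± 0.0806%, and without Sevoflurane 3 it was 0.0174 ± 0.0246%. Since all Control libraries lay above all Sevoflurane libraries, neither mean could reach that of Control.

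Other cells of the borders also varied between these libraries. Cells passing a gate on the fibroblast markers without Pdgfra numbered 116, 113 and 153 in Control 1 to 3 and 46, 22 and 144 in Sevoflurane 1 to 3. Sevoflurane 1 and 2 were lowest for fibroblasts as they were for border macrophages, while Sevoflurane 3 was within the Control range. Choroid plexus cells, which secrete cerebrospinal fluid, were picked by a gate on their markers without Ttr. They numbered 60, 22 and 109 in Control and 2, 5 and 1 in Sevoflurane. Microglia numbered 190, 251 and 158 in Control and 270, 203 and 211 in Sevoflurane, with overlapping groups. Gates on endothelial markers passed 213, 116 and 190 cells in Control and 69, 164 and 227 in Sevoflurane. Those on mural markers passed 163, 107 and 96 against 59, 122 and 187. For both, Sevoflurane 1 lay below the Control range, Sevoflurane 2 within it and Sevoflurane 3 above it.

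Set against microglia the groups did not overlap, and set against fibroblasts they did. Ratios to endothelial or mural cells were not taken. Per 100 microglia there were 6.84, 7.57 and 8.86 border macrophages in Control 1 to 3 and 0, 1.48 and 6.16 in Sevoflurane 1 to 3, which is 7.76 ± 1.02 against 2.55 ± 3.22 (SD, n = 3 each, two-sided exact permutation p = 0.1, no overlap). Per 100 fibroblasts, a denominator chosen after the counts had been seen, there were 11.2, 16.8 and 9.15 in Control and 0, 13.6 and 9.03 in Sevoflurane. This is 12.4 ± 3.97 against 7.55 ± 6.94 (SD, n = 3 each, two-sided exact permutation p = 0.4). Sevoflurane 2, with 3 members and 22 fibroblasts, lay within the Control range. Fibroblasts were fewest in the 2 libraries with the fewest border macrophages. Choroid plexus cells were fewer in all 3 Sevoflurane libraries but did not follow the count of border macrophages from library to library, since Sevoflurane 3, with 13 members, had 1 and Control 2, with 19, had the fewest of Control. The part of these cells in the difference was not tested.

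**Figure D2:**
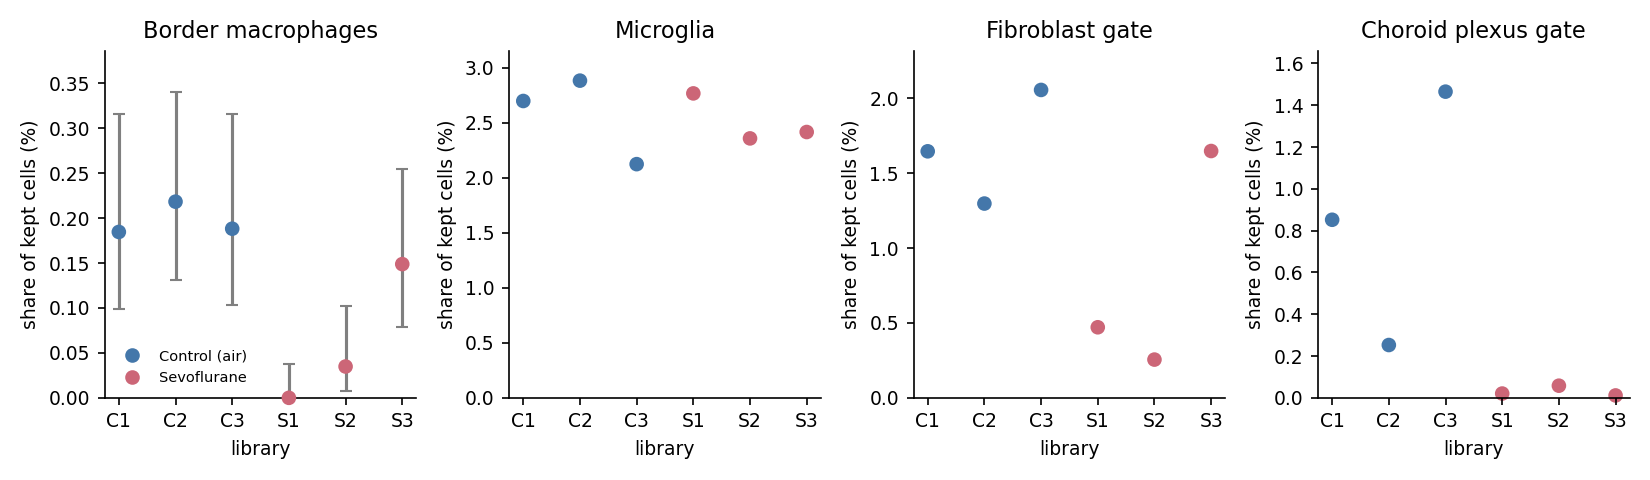
Share of kept cells in percent for each library (C1 to C3 Control, S1 to S3 Sevoflurane) of border macrophages, microglia, and cells passing the fibroblast and the choroid plexus gate. Bars on the left panel are 95% exact binomial intervals and cover counting error only. Border macrophages and fibroblasts are lowest in S1 and S2, where microglia lie within the range of the Control libraries.

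The depth of members overlapped between the groups. The median UMIs per member were 3375, 2317 and 2568.5 in Control 1 to 3 and 2371 and 2325 in Sevoflurane 2 and 3 (2750 ± 553 against 2350 ± 32.5, SD, n = 3 and 2, two-sided exact permutation p = 0.7). With every cell thinned to 1000 UMIs and the same rule applied, the share was 0.139 ± 0.0245% in Control and 0.0354 ± 0.0426% in Sevoflurane (n = 3 each, two-sided exact permutation p = 0.1). With only members of at most 5000 UMIs it was 0.157 ± 0.0332% and 0.0459 ± 0.0605% (n = 3 each, two-sided exact permutation p = 0.1).

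Against microglia, border macrophages were higher for the scavenger receptors Stab1 and Colec12, for Apoe and for Ms4a7, and lower for 8 of 11 tested genes that define microglia, while the scavenger receptors as a list went both ways. The comparison summed counts over the members and over the microglia of each of the 5 libraries with members, and tested 5324 genes with edgeR's quasi-likelihood test with the library as a block. Setting aside the genes of the gates and sex-linked genes, 287 were higher in border macrophages (5.39% of those tested) and 328 lower (6.16%) at a Benjamini-Hochberg adjusted p under 0.05. For members of at most 5000 UMIs, 128 of 4249 genes were higher (3.01%) and 240 lower (5.65%). DESeq2 called 523 higher and 275 lower for all members, and 185 and 141 for those of at most 5000 UMIs. The median log2 fold change over all genes was -0.03 for all members and -0.17 for those of at most 5000 UMIs. Log2 fold changes are scaled by TMM factors, which correct for the composition of each sum, and CPM values are not.

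Of 24 other genes known from border macrophages and not used in the rule, 12 were abundant enough to be tested. Ms4a7, Stab1, Colec12, Maf, Gas6, Tgfbi and Cp were higher and 1 gene lower, with a median log2 fold change of 1.39. Among members of at most 5000 UMIs, 9 of 11 were higher and none lower, with a median of 1.73: Hpgd, Frmd4b and Adgre1 joined and Gas6 was not tested. This list was drawn up with earlier results of these data known.

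Colec12, a scavenger receptor of the collectin family, stood at 878, 1070 and 755 CPM in the members of Control 1 to 3 and at 993 and 443 CPM in those of Sevoflurane 2 and 3. Microglia of the same libraries ranged from 0 to 13.1 CPM and oligodendrocytes from 7.22 to 14 CPM. Every member sum was above every microglia sum, with a log2 fold change of 7.33 (SE 0.43, edgeR adjusted p = 1.65e-15). The gene had a UMI in 38 of 62 members and 0.624% of microglia.

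Stab1, which encodes the scavenger receptor stabilin-1, stood at 930, 1350 and 459 CPM in members from Control and at 632 and 611 CPM in those from Sevoflurane. Microglia ranged from 137 to 184 CPM and oligodendrocytes from 0.344 to 5.88 CPM, so the cell types did not overlap. The log2 fold change over microglia was 2.25 (SE 0.29, edgeR adjusted p = 3.33e-07), and 2.76 (SE 0.26) for members of at most 5000 UMIs. It had a UMI in 54 of 62 members and in 29.9% of microglia.

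Apoe, the lipid carrier apolipoprotein E, stood at 2590, 3040 and 2650 CPM in members from Control and at 1350 and 1220 CPM in those from Sevoflurane. Microglia ranged from 388 to 541 CPM and oligodendrocytes from 390 to 555 CPM, a level near that of microglia. All 5 member sums lay above both, with a log2 fold change over microglia of 2.26 (SE 0.31, edgeR adjusted p = 1.35e-06). The 2 Sevoflurane sums were below the 3 Control sums, a difference that did not pass the test given further on. In members of at most 5000 UMIs the groups overlapped, with 3830, 3230 and 1340 CPM in Control and 2520 and 1860 CPM in Sevoflurane.

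Cp, the copper-carrying ferroxidase ceruloplasmin, stood at 351, 622 and 548 CPM in Control members and at 271 and 464 CPM in Sevoflurane members, against 26.6 to 44.3 CPM in microglia (log2 fold change 3.71, SE 0.31, edgeR adjusted p = 1.94e-11). Tgfbi, a matrix protein induced by TGF-beta, stood at 82.7, 195 and 59.2 CPM in Control and at 361 and 232 CPM in Sevoflurane, against 5.46 to 16.4 CPM in microglia (log2 fold change 4.10, SE 0.44). Both were higher than microglia in all 5 libraries. Ms4a7, a member of the MS4A family of membrane proteins, had 33 UMIs in members and 3 in microglia, a ratio of the levels of 97.7 (95% exact interval 30.7 to 498, counting error only). It stood at 82.7, 213 and 44.4 CPM in Control and at 180 and 169 CPM in Sevoflurane, and at 0 in the microglia of 4 of the 5 libraries.

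Maf, a transcription factor of macrophages, stood at 558, 1070 and 533 CPM in Control members and at 902 and 675 CPM in Sevoflurane members, against 349 to 521 CPM in microglia (log2 fold change 0.81, SE 0.27, edgeR adjusted p = 0.0391). Without Control 1, 2 or 3 or Sevoflurane 3 the edgeR adjusted p of Maf was 0.119, 0.19, 0.142 and 0.0832. Gas6, the ligand of the receptors Axl and Mertk, stood at 196, 213 and 178 CPM in Control members and at 0 and 63.3 CPM in Sevoflurane members, against 32.3 to 54.5 CPM in microglia (log2 fold change 1.85, SE 0.38, edgeR adjusted p = 0.000459). In Sevoflurane 2 the member sum, where 1 UMI is worth 90.2 CPM, was below that of microglia.

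Rarer border genes could be read only from the share of cells with a UMI. Siglec1 had a UMI in 14 members, the lectin Clec10a in 13, Cd209f and Cd209g in 9 each and Cd209a in 6, and none of the 5 was seen in 1283 microglia, which allows 0.234% of them. The folate receptor gene Folr2 had a UMI in 5 members (8.06%) and in 0.779% of microglia. Msr1, a scavenger receptor, had one in 18 members and 0.468% of microglia, and Vsig4, a complement receptor, in 9 members and in no microglia.

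**Figure D3:**
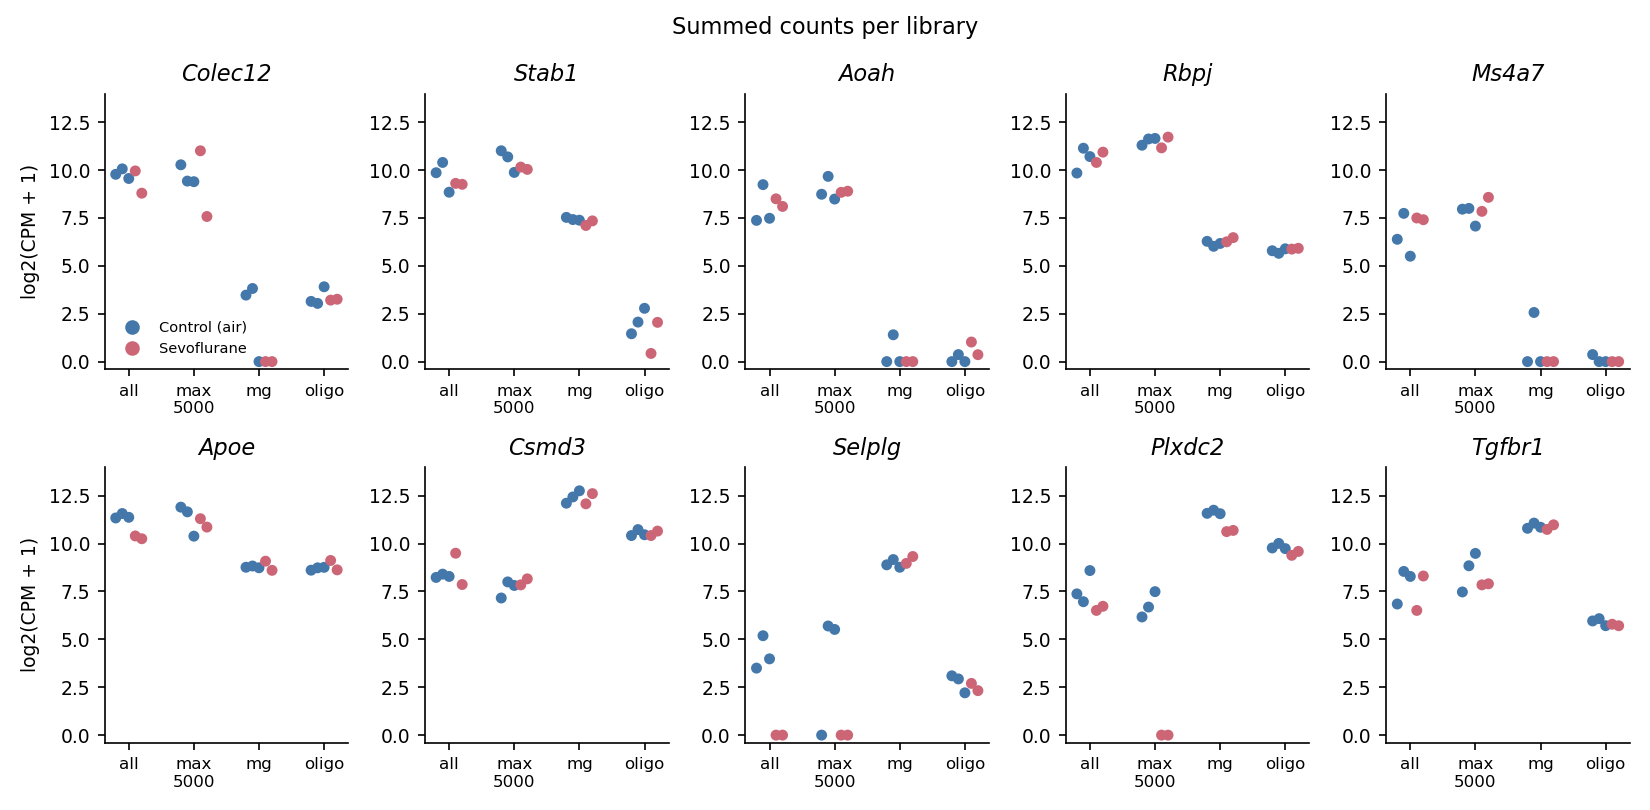
Level as log2(CPM + 1) of summed counts in each of the 5 libraries with members, for all members (all), members of at most 5000 UMIs (max 5000), microglia (mg) and oligodendrocytes (oligo). Blue is Control and red Sevoflurane. Colec12, Stab1, Aoah, Rbpj, Ms4a7 and Apoe are higher in both member sums than in microglia, and Csmd3, Selplg, Plxdc2 and Tgfbr1 are lower.

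Genes that define microglia were lower in border macrophages. Of 20 such genes, 6 belong to the microglia gate and were given no test. Of 11 others that were tested, 8 were lower (among them Csf3r, Nav3, Tgfbr1, Trem2, Selplg, Golm1 and Bin1) and none higher, with a median log2 fold change of -2.14. In members of at most 5000 UMIs it was again 8 of 11, with Sparc in and Trem2 out, and a median of -2.35.

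Tgfbr1, a receptor of TGF-beta, stood at 114, 373 and 311 CPM in Control members and at 90.2 and 316 CPM in Sevoflurane members, against 1710 to 2150 CPM in microglia (log2 fold change -2.93, SE 0.33). Selplg, a ligand of selectins, had 4 UMIs in all members against 1326 in microglia (log2 fold change -5.04, SE 0.49). Csf3r, a cytokine receptor, had a log2 fold change of -2.90, and all 3 of these genes were lower in 5 of 5 libraries and passed with edgeR. Trem2, a lipid receptor, stood at -2.40 (edgeR adjusted p = 0.00793), and at -1.46 (edgeR adjusted p = 0.266) for members of at most 5000 UMIs.

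Genes of the microglia gate were not absent from members. P2ry12 had a UMI in 21 of 62 members, Cx3cr1 in 19, Siglech in 10, Gpr34 in 8, Sall1 in 5 and Tmem119 in 3, and 12 members also reached the UMI sum of the microglia gate. They were kept as members under the rule.

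Among 20 scavenger and endocytic receptors, 8 were tested, and Stab1 and Colec12 were higher while Lrp1 and Mertk were lower, with a median log2 fold change of -0.36. The same 4 genes passed among the 7 tested in members of at most 5000 UMIs, with a median of -0.38. Mertk, a receptor for the uptake of dying cells, stood at 610, 622 and 444 CPM in Control members and at 541 and 464 CPM in Sevoflurane members, against 907 to 1380 CPM in microglia (log2 fold change -1.09, edgeR adjusted p = 0.00708). All member sums were below all microglia sums, and with doublet-marked cells removed the edgeR adjusted p was 0.0503. Lrp1, an endocytic receptor of many ligands, had a log2 fold change of -1.20 (edgeR adjusted p = 0.0164), which without Sevoflurane 3 missed the threshold (edgeR adjusted p = 0.0808). The Fc receptor Fcgr2b had a UMI in 20 members (7.4% of microglia) and Fcgrt in 13 (3.04% of microglia).

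Complement genes gave no call for all members, with none of 5 tested genes of 12. C1qa, C1qb and C1qc, the chains of C1q, had log2 fold changes of 0.26, 0.52 and 0.01, and the list a median of 0.26. They had a UMI in 27, 36 and 27 of 62 members, against 29.9%, 36.9% and 30.9% of microglia. In members of at most 5000 UMIs, 1 of 4 tested genes of the list was higher, with a median of 0.72.

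Most cytokine and chemokine genes were not seen in members. Of 20 genes, 12 had no UMI in any of the 62 members: Ccl2, Ccl3, Ccl4, Ccl7, Ccl8, Cxcl2, Cxcl10, Il1a, Il1b, Il6, Il10 and Tnf. A count of 0 in 62 members allows up to 4.84% of members with a UMI at this depth. The cytokine Il16 had a UMI in 13 members (21.0%, against 7.09% of microglia), the chemokine Ccl12 in 11 (17.7% against 0.935%), Tgfb1 in 9 (14.5% against 20.3%) and the chemokine Cxcl16 in 8 (12.9% against 0.857%). Ccl9 had one in 4 members, Ccl6 in 3 and Ccl24 in 1. Il18, a cytokine of the interleukin-1 family, was lower than in microglia (log2 fold change -1.95, edgeR adjusted p = 0.0189), which did not pass for members of at most 5000 UMIs, where 3 UMIs were left, nor without Control 2 (edgeR adjusted p = 0.0664) or Control 3 (0.0827). Its level was 66.5 to 80.8 CPM in microglia and 96.7 to 133 CPM in oligodendrocytes, and the part of free RNA was not tested. Il18 was 1 of 2 tested genes of the list, with a median log2 fold change of -1.47, and of -1.31 for members of at most 5000 UMIs.

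MHC class II genes, which present antigen to T cells, were too low to be tested one by one. At least 1 UMI of H2-Aa, H2-Ab1, H2-Eb1 or Cd74 was present in 10 of 62 members (16.1%), against 12 of 1283 microglia (0.935%) and 51 of 7022 oligodendrocytes (0.726%), with similar median depths. Thinned to 1000 UMIs, the shares were 9.68%, 0.471% and 0.289%, so that of microglia was near the background of free RNA and that of members was above it. By library, 2, 3 and 2 members in Control 1 to 3 and 0 and 3 in Sevoflurane 2 and 3 had such a UMI. The share of members exceeded that of microglia by 12.7 percentage points on average, in 4 of 5 libraries, and both were 0% in Sevoflurane 2. The two-sided exact sign-flip permutation p was 0.125, the smallest possible with this tie, against 0.0625 with no tie. Of the 18 members with a Lyve1 UMI, 2 also had an MHC class II UMI. Between the groups the share was 15.2 ± 0.778% in Control and 11.5 ± 16.3% in Sevoflurane (SD, n = 3 and 2, two-sided exact permutation p = 0.7), and the Sevoflurane libraries lay on both sides of Control. Without Sevoflurane 2 the difference turned to 7.92 percentage points.

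Growth factors, iron and lipid genes had few tested members. Of 4 tested growth factors of 10, Gas6 was higher and the intracellular factor Fgf13 lower (log2 fold change -3.57), with a list median of 0.58. In members of at most 5000 UMIs 2 were tested, Fgf13 was lower and none higher, and the median turned to -2.39. Igf1 had a UMI in 10 members and 1.87% of microglia. Of 5 tested iron and haem genes of 15, Cp and the ferritin light chain gene Ftl1 were higher, with a median of 0.82. Ftl1 stood at 579, 178 and 592 CPM in Control members and at 0 and 190 CPM in Sevoflurane members against 64.3 to 85.2 CPM in microglia (log2 fold change 2.11), and did not pass for members of at most 5000 UMIs (0.95, edgeR adjusted p = 0.233). There Cp alone passed of 4 tested, with a median of 0.78. Blvrb, a biliverdin reductase, had a UMI in 20 members and 3.74% of microglia, and the iron exporter Slc40a1 in 17 members and 18.9% of microglia. Of 7 tested lipid genes of 17, Apoe was higher and Trem2 lower, with a median of -0.56. Among those of at most 5000 UMIs Apoe was higher and none of the 6 tested was lower, and the median turned to 0.24. Of 3 tested genes of cholesterol synthesis of 21 none passed, with a median of -0.22, nor did the 1 tested in members of at most 5000 UMIs (-0.32).

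Of 20 macrophage transcription factors, 14 were tested. Maf was higher and 7 factors, among them Irf8, Runx1, Mef2a, Mef2c, Sall3 and Bach2, were lower, with a median log2 fold change of -0.80. Irf8, a regulator of myeloid development, had a UMI in 6 members and 28.7% of microglia, and stood at 10.3, 35.5 and 29.6 CPM in Control members and at 0 and 21.1 CPM in Sevoflurane members against 102 to 203 CPM in microglia (log2 fold change -2.79). Sall3, a relative of the microglial factor Sall1, had 2 UMIs in members against 209 in microglia, a ratio of 11.8 (95% exact interval 3.22 to 97.7, counting error only). For members of at most 5000 UMIs, with 13 tested and a median of -0.68, Maf, Irf8, Mef2a, Sall3 and Bach2 passed again and Runx1 (-0.60, edgeR adjusted p = 0.21) and Mef2c (-0.68, edgeR adjusted p = 0.0802) did not. Without Control 1 the edgeR adjusted p of Bach2 was 0.063, of Runx1 0.145 and of Mef2c 0.101, and Mef2c also missed without Control 3 (0.0844) and Sevoflurane 3 (0.15).

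Of 18 genes of vessel and matrix adhesion, 8 were tested. The integrins Itgb1 and Itga4, the laminin chain Lama2 and the receptor Nrp1 were higher, and the integrins Itga9 and Itga6 lower, with a median log2 fold change of 0.80. Lama2 stood at 269, 142 and 178 CPM in Control members and at 0 and 63.3 CPM in Sevoflurane members. It was above microglia in 4 of 5 libraries, while oligodendrocytes ranged from 221 to 330 CPM. In members of at most 5000 UMIs Lama2 was not tested, with 319, 0 and 44.8 CPM in Control and 0 in both Sevoflurane sums. Nrp1, neuropilin-1, a receptor of VEGF and semaphorins, stood at 434, 977 and 444 CPM in Control members and at 451 and 232 CPM in Sevoflurane members, against 88.7 to 142 CPM in microglia and 71.3 to 101 CPM in oligodendrocytes (log2 fold change 2.01, SE 0.30). For members of at most 5000 UMIs Nrp1 (2.58, SE 0.29) and Itga6 (-2.71) alone passed of 6 tested, with a median of 0.03. Itgb1 had a log2 fold change of 0.32 there (edgeR adjusted p = 0.827), against 1.32 in all members, where endothelial and mural markers were high in the deep members. Their part in this value was not tested. Without single libraries the edgeR adjusted p missed the threshold for Itgb1 (0.0594 without Control 1, 0.0537 without Control 3), Lama2 (0.101 without Control 1, 0.0703 without Control 2) and Itga9 (0.0655 without Control 3, 0.0677 without Sevoflurane 3).

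Glucocorticoid-responsive, interferon-stimulated and immediate-early genes showed 1 call each or none. Of 11 tested glucocorticoid-responsive genes of 20, the transcription factor Zbtb16 was higher than in microglia, with 940, 213 and 607 CPM in Control members and 451 and 611 CPM in Sevoflurane members against 121 to 352 CPM (log2 fold change 1.39, SE 0.30, edgeR adjusted p = 0.0011). The background was high for this gene, with 787 to 1060 CPM in oligodendrocytes. Fkbp5, a chaperone that glucocorticoids induce, had a log2 fold change of 0.06 and a UMI in 59 of 62 members. Of 5 tested interferon-stimulated genes of 20, Parp14 was higher (log2 fold change 1.45, edgeR adjusted p = 0.01), and Ifi207, seen in 21 members and 0.39% of microglia, was not tested. Without Control 3 the edgeR adjusted p of Parp14 was 0.0929. The medians were 0.53 for the glucocorticoid-responsive and 0.83 for the interferon-stimulated genes. None of 5 tested immediate-early genes of 20 passed, with a median of -0.08, and Fos and Atf3 had no UMI in 62 members. Zbtb16 (1 of 11 tested, median 0.55) and Parp14 (1 of 4, median 0.64) passed again in members of at most 5000 UMIs, and none of 3 immediate-early genes did (median -0.04).

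**Figure D4:**
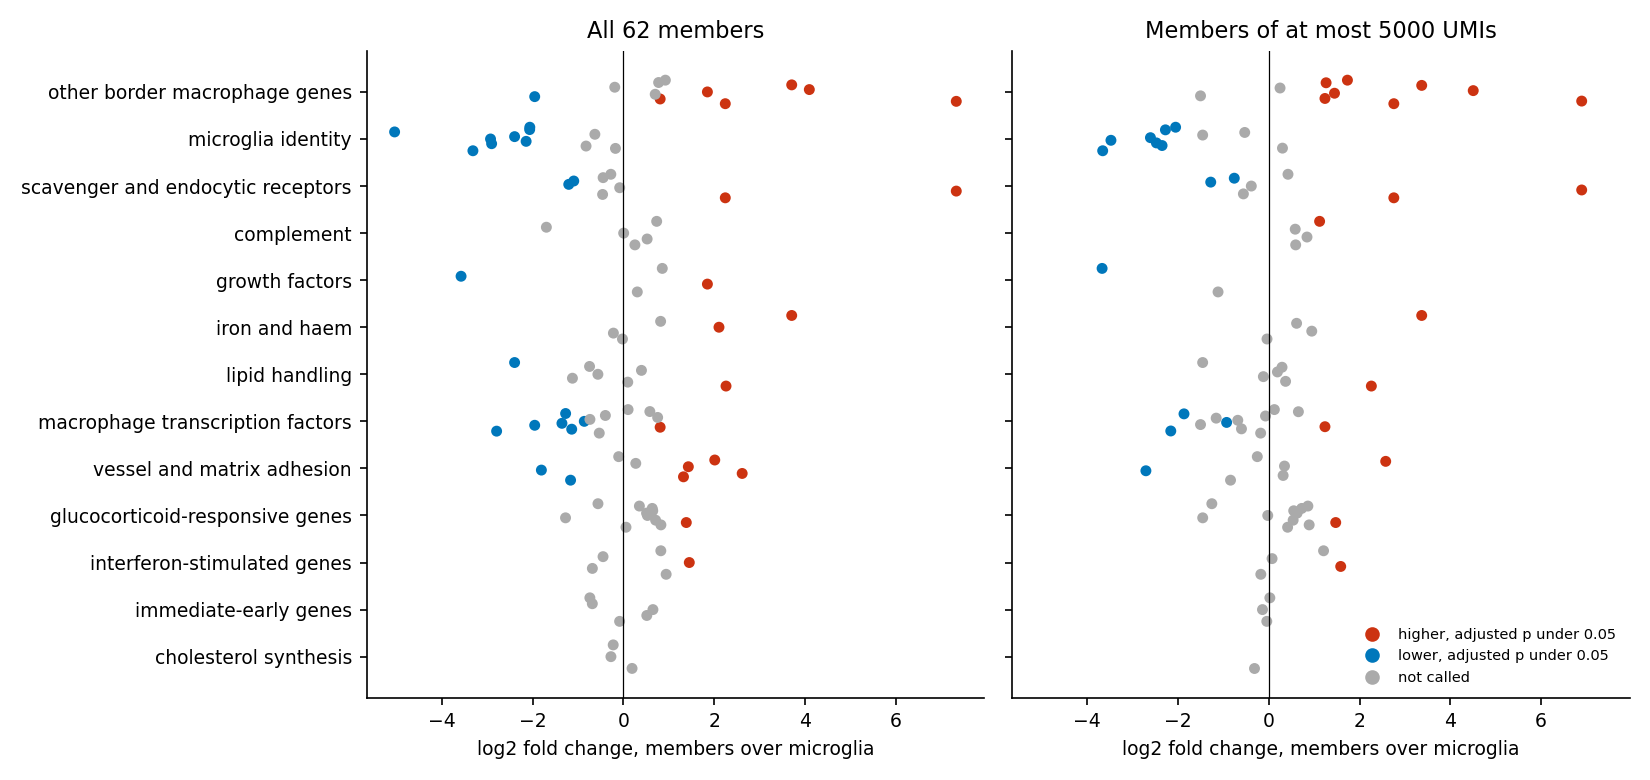
Each point is a tested gene of a list with its log2 fold change of members over microglia, on the left for all 62 members and on the right for those of at most 5000 UMIs. Red and blue points passed at an adjusted p under 0.05 and grey points did not. Genes of the gates and genes with at most 3 UMIs on either side are not drawn. Border macrophage genes lie mainly right of 0 and microglia genes left of it in both panels.

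Beyond the lists, the 15 genes with the highest and the 15 with the lowest log2 fold change were taken among those that passed, had at least 50 CPM on the higher side and went the same way in all 5 libraries. Of the 15 highest, 9 passed also for members of at most 5000 UMIs and the other 6 were not tested there. Of the 15 lowest, 12 passed there and 3 were not tested.

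Ms4a4a, a further MS4A gene, had 57 UMIs in members and none in microglia, so it was at least 169-fold higher, by the limit of 3 counts over all microglia. Its level was 114, 195 and 163 CPM in Control members and 90.2 and 485 CPM in Sevoflurane members. Ms4a6c had a log2 fold change of 4.15 (SE 0.35), and with Ms4a7 it makes 3 genes of this family among the 15. Aoah, an enzyme that deactivates bacterial lipopolysaccharide, had 79 UMIs against 1, a ratio of 702 (95% exact interval 122 to 28100). It stood at 165, 604 and 178 CPM in Control members and at 361 and 274 CPM in Sevoflurane members, and had a UMI in 40 of 62 members.

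Rbpj, the DNA-binding partner of Notch, stood at 920, 2260 and 1670 CPM in Control members and at 1350 and 1960 CPM in Sevoflurane members, against 63.9 to 87.9 CPM in microglia and 49.4 to 59.4 CPM in oligodendrocytes. All 5 member sums were above all 5 microglia sums, with a log2 fold change of 4.41 (SE 0.32, edgeR adjusted p = 4.08e-13), and 5.02 for members of at most 5000 UMIs. Egfr, the epidermal growth factor receptor, stood at 176, 267 and 192 CPM in Control and at 271 and 316 CPM in Sevoflurane, against 8.19 to 28.3 CPM in microglia (log2 fold change 3.99, SE 0.38, and 4.83 for members of at most 5000 UMIs). The adhesion molecule Vcam1 had a log2 fold change of 5.60 (SE 0.48), Mdfic 4.96, the epimerase Dse 4.07 and the signalling protein Vav3 4.08. Lyz2, lysozyme of macrophages, was at 6.03, but its near-identical copy Lyz1 makes its counts uncertain and 25 of its 72 UMIs came from 1 member. Timp3, a metalloprotease inhibitor, was at 4.35, with 163 of its 180 UMIs in the 13 deep members. F630028O10Rik had 55 UMIs against 3 (ratio 163, 95% exact interval 52.9 to 814).

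On the lower side, the transcript 8030442B05Rik had no UMI in 62 members and 1084 in microglia, where 61.3% of cells had one, so it was at least 40.7-fold lower by the limit of 3 counts over all members. Gm50035, Mlxipl, D7Ertd443e, Upk1b and I830077J02Rik also had no UMI in members and were at least 11.3-, 10.8-, 7.46-, 6.49- and 5.51-fold lower. Of these, D7Ertd443e stood at 654 to 1010 CPM in oligodendrocytes against 57.6 to 107 CPM in microglia. The part of free RNA in its microglial level was not tested. Csmd3, a large membrane protein, stood at 300, 338 and 311 CPM in Control members and at 722 and 232 CPM in Sevoflurane members, against 4320 to 6920 CPM in microglia (log2 fold change -3.97, SE 0.35). All member sums lay below those of oligodendrocytes as well, as the plot of levels by library shows. Eya4, Kcnk12 and Ipcef1 had 1 member UMI each, A830008E24Rik 2 and Lhfpl2 and Nr6a1os 3, with ratios of 18.2 to 29.7. Gm2629 had a log2 fold change of -4.71.

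Among members of at most 5000 UMIs the same rule named 6 genes on the higher side that it did not name for all members. These were the phosphodiesterase Pde7b (4.57), Arhgap15 (4.06), Sh3pxd2b (4.06), Stard8 (3.68), Ms4a6b (3.65) and Atp5o under ENSMUSG00000116933, a symbol that occurs more than once in the gene list and is uncertain. On the lower side it named Plxdc2 (-5.25), Nav2 (-5.09), Soga1 and 7 genes without a member UMI: Nhs, Mlph, Arhgap24, Sall3, Kcnn2, Tspan18 and Yes1, at least 15.7-, 7.91-, 4.91-, 3.3-, 3.28-, 2.86- and 2.91-fold lower. In all members Tspan18 had not passed (edgeR adjusted p = 0.26), and without Control 1 Kcnn2 missed the threshold there (edgeR adjusted p = 0.0537), as did Yes1 without each of Control 2, Control 3, Sevoflurane 2 and Sevoflurane 3 (0.0703 to 0.169). Among all members Plxdc2 stood at 165, 124 and 385 CPM in Control and at 90.2 and 105 CPM in Sevoflurane against 1580 to 3430 CPM in microglia.

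Markers of other cells moved with the calls in all members. The endothelial gene Flt1, the mural gene Rgs5, the fibroblast genes Dcn and Pdgfra and the neuronal gene Rbfox1 were higher than in microglia, and 143 of 151 Flt1 UMIs and 258 of 270 Rgs5 UMIs lay in members above 5000 UMIs. Of 7 tested oligodendrocyte markers, 6 were lower. In members of at most 5000 UMIs no endothelial, mural or fibroblast marker was abundant enough to be tested, and none of 12 neuron markers passed.

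No gene of border macrophages passed between Sevoflurane and Control when all members were used. Of 1587 genes tested on the sums of 3 Control and 2 Sevoflurane libraries, 0 passed (0%, edgeR, adjusted p under 0.05), 169 had an unadjusted p under 0.05, and DESeq2 called 4, all lower. Sevoflurane 1 has no member and is not in the fit, and Sevoflurane 2 enters with 3 members. When only members of at most 5000 UMIs were used, 5 of 351 genes passed (1.42%, edgeR): Ptgds, Ttr, Trpm3 and Chd9 were lower after sevoflurane and Rad51b higher. There Sevoflurane 2 rests on 2 members, where 1 UMI is worth 229 CPM. The 5 became 0 without Control 1 and without Control 3, 1 without Control 2, 10 without Sevoflurane 2 and 8 without Sevoflurane 3, and DESeq2 called none.

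Chd9, a chromatin remodeller, had 17, 26 and 13 UMIs in the members of at most 5000 UMIs of Control 1 to 3 and 1 and 1 in those of Sevoflurane 2 and 3, which is 603, 662 and 582 CPM against 229 and 47.6 CPM. Both Sevoflurane sums lay below all 3 Control sums, which the rule for naming a gene required. The ratio was 7.92 (95% exact interval 2.09 to 67, edgeR adjusted p = 0.0361). Among all members 12 of 13, 19 of 19 and 10 of 14 cells had a UMI in Control 1 to 3, and 2 of 3 and 4 of 13 in Sevoflurane 2 and 3. Over all members the log2 fold change was -1.56 (edgeR adjusted p = 0.345), and in microglia -0.38 (edgeR adjusted p = 0.479).

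Rad51b, a gene of DNA repair, had 3, 7 and 3 UMIs in Control and 4 and 20 in Sevoflurane among members of at most 5000 UMIs, which is 106, 178 and 134 CPM against 915 and 951 CPM. The 2 Sevoflurane sums were above all Control sums, which the rule for naming a gene required here too. The log2 fold change was 2.63 (SE 0.67, edgeR adjusted p = 0.017). Over all members it was 2.46 (edgeR adjusted p = 0.231), and in microglia 0.73 (edgeR adjusted p = 0.366).

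The other 3 genes are known from choroid plexus or meningeal cells. Ttr, transthyretin of the choroid plexus, had 13, 9 and 46 UMIs in Control and none in Sevoflurane in members of at most 5000 UMIs, so it was at least 6.41-fold lower by the limit of 3 counts over the group (edgeR adjusted p = 0.00117). In microglia it was lower too, with 408, 195 and 1420 CPM in Control and 5.14, 2.22 and 17.9 CPM in Sevoflurane 1 to 3 (edgeR adjusted p = 0.00012), and in oligodendrocytes it stood at 336, 176 and 1220 CPM against 8.09, 10.7 and 12.8 CPM. Over all cells of a library Ttr stood at 0.552 to 3.92 UMIs per cell in Control and at 0.0164 to 0.0185 in Sevoflurane, and choroid plexus cells were fewer there, as given above. Ptgds, a prostaglandin synthase of the meninges, had 64, 16 and 128 UMIs in Control and 0 and 3 in Sevoflurane, a ratio of 19.6 (95% exact interval 6.62 to 95.9, edgeR adjusted p = 3.16e-05), with 125 of the UMIs in 1 member of Control 3. Trpm3, an ion channel, had 121, 19 and 6 UMIs in Control and 0 and 3 in Sevoflurane, a ratio of 13.8 (95% exact interval 4.62 to 67.5, edgeR adjusted p = 0.00241), with 91 in 1 member of Control 1. The part of free RNA and of mixed cells in these 3 genes was not tested.

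**Figure D5:**
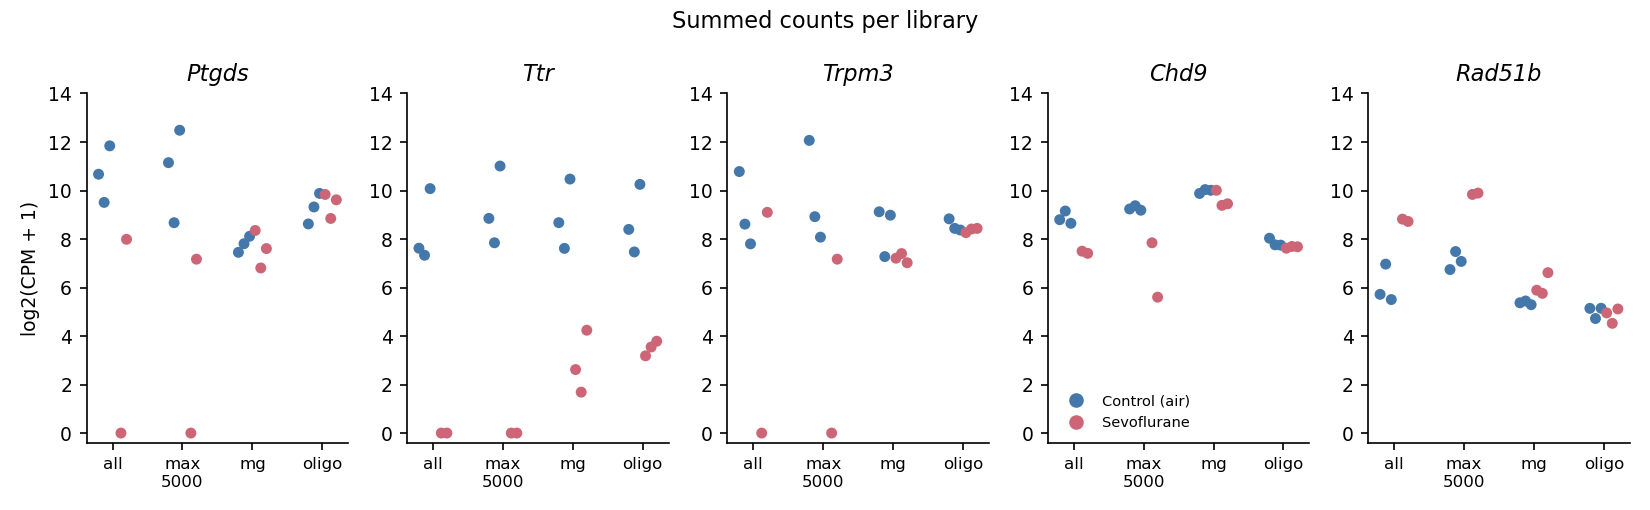
Level as log2(CPM + 1) per library of the 5 genes that passed between Sevoflurane (red) and Control (blue) in members of at most 5000 UMIs (max 5000), shown also for all members (all), microglia (mg) and oligodendrocytes (oligo). Members exist in 5 libraries and the other cells in 6. Ttr is lower after sevoflurane in all 4 groups of cells, and Chd9 and Rad51b show no overlap of the groups in either sum of members. Lack of overlap in members of at most 5000 UMIs was a condition for naming a gene.

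Genes of the lists did not pass between the groups in all members. The 10 tested border macrophage genes had a median log2 fold change of -0.47, the 3 scavenger receptors -0.61, the 4 complement genes -0.42, the 8 transcription factors -0.25 and the 5 glucocorticoid-responsive genes -0.07, against -0.08 over all genes tested. Apoe stood at -1.26 (edgeR adjusted p = 0.334), Stab1 at -0.69 (edgeR adjusted p = 0.713), Colec12 at -0.61 and Cp at -0.46. All 11 tested neuron markers had a positive value, with a median of 0.99, while the 2 mural markers had a median of -4.53 (-2.32 with a gene at 0 set to its bound), the 2 fibroblast markers -2.26 and the 4 astrocyte markers -1.53. None of these markers passed, and their part in the values of other genes was not tested. In members of at most 5000 UMIs, Ttr was the only listed gene or marker that passed.

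The genes with the lowest p in all members lay mainly in the deep members. Robo1, an axon guidance receptor, had 9, 8 and 10 UMIs in Control and 13 and 34 in Sevoflurane (93, 142 and 148 against 1170 and 717 CPM, log2 fold change 2.66, edgeR adjusted p = 0.184), with 63 of its 74 UMIs in members above 5000 UMIs. Ptprd, a phosphatase of synapses, had 39, 52 and 29 UMIs against 26 and 155, of which 102 came from 1 member of Sevoflurane 3. On the lower side, the cystine transporter Slc7a11 had 88, 38 and 24 UMIs against 0 and 2, and the laminin Lama1 40, 19 and 25 against 0 and 3. Pde3a had 34, 8 and 27 against 0 and 0, all of them in members above 5000 UMIs. Apod, a lipid carrier, had 90, 96 and 65 against 0 and 10. The groups did not overlap in CPM for any of these genes, but the genes were picked by low p, which favours such separation. The edgeR adjusted p of the 10 lowest ran from 0.184 to 0.231.

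The effect of sevoflurane differed between border macrophages and microglia for 20 of 7514 genes (0.266%, edgeR interaction with the library as a block, adjusted p under 0.05), 9 with a higher and 11 with a lower effect in border macrophages, while 535 had an unadjusted p under 0.05. The median difference over all genes was -0.31 on the log2 scale. The count ranged from 1 without Control 3 and 2 without Sevoflurane 2, over 6 without Control 1 and 15 without Sevoflurane 3, to 21 without Control 2. For members of at most 5000 UMIs, 1 of 6073 genes passed (0.0165%), Ptgds, with a difference of -4.01 (edgeR adjusted p = 0.00959). Ctsc, the lysosomal protease cathepsin C, passed for all members and had 55 of its 67 UMIs in members of at most 5000 UMIs. It had 26, 20 and 17 UMIs in Control members and 0 and 4 in Sevoflurane members (269, 355 and 252 against 0 and 84.3 CPM), in 10, 12 and 9 members of Control 1 to 3 and in 0 and 3 members of Sevoflurane 2 and 3. Both Sevoflurane sums lay below all Control sums, but genes were named only where the groups did not overlap relative to microglia. The effect differed from that in microglia by -3.13 on the log2 scale (edgeR adjusted p = 0.0463), which did not pass for members of at most 5000 UMIs (-3.07, edgeR adjusted p = 0.331). It also missed the threshold without any 1 of the 5 libraries (edgeR adjusted p = 0.122 to 0.363), with doublet-marked cells removed (0.39), with no filter on low counts (0.126), without members that pass the microglia sum (0.0789) and at a marker sum of at least 5 UMIs (0.0582).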

How the data were processed

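Counts were read from 6 libraries, 3 Control and 3 Sevoflurane, of 10x Genomics Single Cell 3′ v3.1 kits. Deposited were raw counts of UMIs for each gene in each barcode, and the file headers name Cell Ranger 6.1.1 as the software. CASAVA 1.8, Cell Ranger and Seurat appear in the list of tools, per the submitters' processing notes, without a stated role. Genome build, annotation and strand setting are not given in the sources used here, so overlapping and antisense genes and near-identical copies are uncertain.

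Kept cells had at least 500 UMIs and 300 genes and no more than 20% of mitochondrial UMIs, and doublets were kept as well (scored with Scrublet in scanpy 1.11.5 for an alternative). No correction for free RNA was made. A library gave 7042 to 8705 kept cells in Control and 8609 to 9758 in Sevoflurane. Members were chosen by the marker rule given in the report, microglia and oligodendrocytes by gates of the same form, and a member was never counted as microglia. The members, lists and gates were chosen with earlier results of these data known.

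Counts were summed per library over members and over microglia, since cells are not replicates. The planned fit had 6 member sums. Sevoflurane 1 has no member, so 5 were used, with Sevoflurane resting on 2 libraries. Member sums held 96761, 56285 and 67579 UMIs in Control 1 to 3 and 11081 and 47428 in Sevoflurane 2 and 3, so 1 UMI is worth 10.3 to 90.2 CPM. Sums were tested in R 4.3.3 with edgeR 4.0.16, by its quasi-likelihood test (TMM, filterByExpr, Benjamini-Hochberg adjustment over all genes tested, threshold 0.05), with the library as a block where cell types were compared. SEs follow from the log2 fold change and its F statistic. Shares were compared with two-sided exact permutation tests over libraries, whose smallest p is 0.1 for 3 against 3 and for 3 against 2 libraries. Binomial intervals and limits from a count of 0 (3 counts) cover counting error only. The scripts were tested on simulated data.

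Genes were named from the lists and by rule, and a few are counted but not reported here by name. Against microglia these were the 15 highest and 15 lowest log2 fold changes that passed, with at least 50 CPM on the higher side and 1 direction in all libraries. Between groups they were genes that passed without overlap of the groups and, where fewer than 5 passed, the 5 lowest p in each direction. The 9 rule genes, the 6 genes of the microglia gate and sex-linked genes were given no test. Alternatives were DESeq2 1.42.0, its size factors in edgeR, no filter, doublets removed, a marker sum of at least 5, members that pass the microglia sum left out, thinning to 1000 UMIs, at most 5% mitochondrial UMIs, a replicate block, no library block and each library left out. The limit of 5000 UMIs, the fibroblast denominator, the gates for other cells and the edgeR fit on cell counts were added after seeing the data.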

Additional observations from a re-analysis of the deposited data

Results flagged for a closer look

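For 10 genes the effect of sevoflurane in border macrophages differed from that in microglia by a test of the difference itself (edgeR interaction with the library as a block, over 3 Control and 2 Sevoflurane libraries). Values are the log2 fold change in members minus that in microglia. The effect was higher in members for Sorcs3 by 3.41 (adjusted p = 0.0167), Pde4b by 2.94 (0.0296), Ntng1 by 2.92 (0.0347), Ptprd by 2.56 (0.00314) and Robo1 by 2.49 (0.027). It was lower in members for Mylk, with a difference of -5.72 (0.0463), Ahnak -4.23 (0.0487), Apod -3.33 (0.00314), Ctsc -3.13 (0.0463) and Ptgds -3.08 (0.00545).

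Each of the 10 missed the threshold without at least 1 of the 5 libraries. Counts behind these values were small. Sorcs3, a sorting receptor of neurons, had 0, 7 and 0 UMIs in the members of Control 1 to 3 and 11 and 10 in those of Sevoflurane 2 and 3. Pde4b, a phosphodiesterase, had 5, 2 and 8 against 4 and 14, and Ntng1, a netrin-like protein, had 6, 5 and 3 against 11 and 7. Mylk, a kinase of smooth muscle, had 54, 1 and 14 against 0 and 1, of which 36 lay in 1 member of Control 1, and Ahnak had 34, 12 and 10 against 0 and 2. The ratios of their levels between the groups were 18.3 (95% exact interval 3.18 to 733) and 7.43 (1.96 to 62.8), with counting error only. For members of at most 5000 UMIs the difference was 0.56 for Sorcs3, 2.93 for Pde4b, 0.40 for Ntng1, 0.10 for Ptprd and 1.06 for Robo1, none of which passed, and Ptgds alone passed (-4.01, edgeR adjusted p = 0.00959). Of the genes with a lower effect, Ahnak, Apod and Ctsc did not pass there and Mylk was not tested. The 13 members above 5000 UMIs held 68 of 70 Mylk, 45 of 58 Ahnak and 229 of 261 Apod UMIs. They held 248 of 459 Ptgds and 12 of 67 Ctsc UMIs. In these 13, neuron markers were at or above 100 CP10k in 7, and endothelial and mural markers reached 20 CP10k in 8. The part of these markers in the differences was not tested.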

How the results depend on the processing

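The lower share of border macrophages in Sevoflurane and their lower number per 100 microglia kept their direction in every setting tried. Leaving out a library could not turn them, since all Control libraries lay above all Sevoflurane libraries. Over libraries left out, the share differed by -0.18 to -0.105 percentage points. The difference in median UMIs, -406 in all members, turned to 406 without members that pass the microglia sum and to 20.2 for members of at most 5000 UMIs. That in MHC class II share ran from -15.2 to 7.92 percentage points over libraries left out, positive without Sevoflurane 2. Against microglia, 615 genes were called, 1209 with no filter, 380 with doublets removed, 368 in members of at most 5000 UMIs, and 457 to 749 over libraries left out. None of the 77 named genes changed direction in a setting where it was tested (65 in members of at most 5000 UMIs, 70 with doublets removed). Genes named by rule had 1 direction in all libraries with members, so leaving a library out could hardly turn them. In a setting 1 to 8 genes missed the threshold, except with DESeq2 size factors, where none did. DESeq2 tested 12116 genes, with a median log2 fold change of 0.36 against -0.03 in edgeR. Between groups, 0 genes were called, 4 with DESeq2, 16 with no filter, 5 in members of at most 5000 UMIs and 0 to 2 over libraries left out (2 without Sevoflurane 3). The interaction called 20, 10 with no filter, 3 with doublets removed, 7 without members that pass the microglia sum, 1 in members of at most 5000 UMIs and 1 to 21 over libraries left out. Fewer genes or cells enter several of these settings, and the cause of the other shifts was not tested.

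With the replicate number as a replicate block, edgeR on cell counts gave a log2 fold change of -1.72 with an SE of 0.869, against 0.799 with no block, and 0 genes were called between groups, and 2, both lower, in members of at most 5000 UMIs, against 5 with no block. For Trpm3 the log2 fold change in all members, -1.30, was 0.0109 with the block and ran from -8.59 to 0.187 over libraries left out, above 0 without Control 1. The -8.59 comes without Sevoflurane 3, where the only Sevoflurane sum has no UMI of the gene, and is no bound. Sums over all kept cells of same-numbered libraries correlated at -0.0699, 0.0421 and 0.0353 in their deviations from the group means over 20121 genes. Libraries of different numbers correlated at -0.119 to 0.0749. With 3 libraries per group these values cannot decide whether the numbers pair the libraries, and the labels do not say. Between 1160 and 28199 UMIs per member, a gene with no UMI in 62 members may still be expressed.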
